A study of Mus musculus with 24 samples.

Results

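The genes described here are the voltage-gated calcium and sodium channel genes and the hyperpolarization-activated HCN channel genes of mouse retinal organoids (MROs). They were chosen by symbol alone, as protein-coding genes named Cacna, Cacnb, Cacng, Scn or Hcn, with 2 genes of the Cacna group left out. This gave 42 genes among the 126602 features of the count files, of which 46603 are annotated genes and the rest are transcripts assembled from the reads. Each MRO was grown from wildtype E14Tg2a mouse embryonic stem cells, a single cell line, and received the solvent water. The study's protocol also added a synthetic retinoid analog to the culture medium before the ages sampled here. Total RNA of 24 single MROs was sequenced after removal of ribosomal RNA, with 6 MROs taken at D20 of differentiation, 6 at D22, 6 at D25 and 6 at D30. All MROs came from 1 independent experiment, so the errors given here describe the spread between organoids of that experiment. The age comparisons address how channel gene expression changed while MROs passed from late retinogenesis to maturation.

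Voltage-gated channels turn a change in membrane voltage into an ion current. Sodium channels carry the upstroke of the action potential, and calcium channels open the path for the calcium that triggers transmitter release. In the retina, photoreceptors and bipolar cells mostly signal with graded potentials through ribbon synapses, HCN channels of photoreceptor inner segments shape the light response, and sodium-channel-driven spikes are best known from amacrine and ganglion cells. Each channel is built from a pore-forming alpha subunit and from auxiliary subunits that set its surface level and gating.

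The libraries held between 13634846 and 19477108 counted reads, so that 3 reads corresponded to 0.154 to 0.22 CPM, the unit of counts scaled to the library total. Levels are given as CPM after scaling by the trimmed mean of M values (TMM). The retinal identity of the samples was checked with marker lists. The summed level of 8 rod genes had medians of 3470, 5600, 11400 and 13300 CPM at D20, D22, D25 and D30, and that of 6 progenitor genes had medians of 702, 403, 159 and 111 CPM. Lists of 6 genes each had D20 and D30 medians of 480 and 2360 CPM for Müller glia, 46.1 and 271 CPM for bipolar cells, 107 and 189 CPM for amacrine cells, and 104 and 26.6 CPM for ganglion cells. The sum of the amacrine list had its highest median at D25 (268 CPM) and was lower again at D30, but some of its genes were highest at D30. Genes of the ganglion cell list also differed in direction from D20 to D30, as did those of the rod list from D25 to D30. A sum therefore does not stand for each gene of its list. The part of the shifts in these lists in the channel gene levels was not tested. A list of 7 genes of cerebral cortex type neurons (Emx1, Tbr1, Neurod6, Neurod2 and Fezf2 among them) varied widely between organoids of one age. Its sum ranged from 22.7 to 238 CPM at D20, 10.9 to 33.2 CPM at D22, 13.2 to 356 CPM at D25 and 8.54 to 242 CPM at D30, and none of its genes was at 0 in all organoids of an age. Neurod6 and Neurod2 are also known from amacrine or ganglion cells, so the list does not name one cell type. Much of the sum was Neurod6, with a median of 118 CPM at D30 where the list had a median of 186 CPM, while Fezf2 had medians of 17.2 CPM at D20 and 4.56 CPM at D30. D30 replicate 6 stood apart among the D30 organoids. It had the lowest cortex list sum (8.54 CPM, against 33.1 to 242 CPM in the other D30 organoids) and the lowest sum of 6 Müller glia genes (1150 CPM against 1870 to 4100 CPM), while its rod list sum of 16200 CPM was within the range of the others. Its sum of 4 pigment cell genes was 2500 CPM. That sum was 2680 CPM in D30 replicate 2 and 30.4 to 473 CPM in D30 replicates 1, 3, 4 and 5. Most of it was a single gene, with a D30 median of 358 CPM where the list had a median of 394 CPM. Another gene of the list was lower at D30 than at D20, so the sum does not stand for the whole list.

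Of the 42 channel genes, 35 passed the minimum base mean of 10 normalized counts and were tested with edgeR, with p-values adjusted over all 46949 tested features and a threshold of 0.01. From D20 to D30, 16 channel genes rose and 1 fell. The 16 are 45.7% of the channel genes tested, where 13.9% of all features and 28.8% of the 13263 protein-coding genes tested were called higher. The single lower gene compares with 13.0% of all features and 16.5% of protein-coding genes called lower. The median log2 fold change was 0.52 over the channel genes, -0.04 over all features and 0.15 over protein-coding genes. In whole organoid RNA, a change in the number of cells that express a gene and a change in RNA per cell cannot be told apart. Where the test was restricted to annotated genes, which moved the median of all features by -0.089 on the log2 scale, the split was 15 higher and 3 lower, with Cacnb3 and Cacna1d added to the lower genes and Cacna2d3 lost from the higher genes. In that fit, 3777 of the 16284 features tested were called higher and 3545 lower.

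The change was not spread evenly over time. Between D20 and D22, 3 channel genes (8.57%) rose (Cacnb2 and Scn7a among them) and 0 fell, while 1.62% of all features (2.89% of protein-coding genes) were called higher and 0.285% (0.912%) lower. The Scn7a call at this step rested on 0 to 2 reads per organoid at D20 and 1 to 22 at D22, with overlapping ranges. It was lost in the fit of the compared timepoints only (edgeR adjusted p = 0.059). It was also lost without the organoids above 100 CPM of the cortex list (edgeR adjusted p = 0.0115). DESeq2 also called 0 channel genes lower at this step, beside 382 of 46949 features. In edgeR, 4 channel genes (Cacna1e, Cacna1i, Cacna2d3 and Cacnb1) had a negative estimate with an unadjusted p under 0.05. Between D22 and D25, 8 (22.9%) rose (Cacna1e, Cacna2d3, Cacnb2, Cacnb4, Scn1a, Scn2a, Scn7a and Scn2b) and 1 fell (Cacna1h), beside 3.08% of all features (8.66% of protein-coding genes) higher and 2.19% (3.02%) lower. Between D25 and D30, 2 rose (Scn7a among them) and 0 fell, beside 1.76% of all features (5.35% of protein-coding genes) higher and 1.75% (3.03%) lower. The share of 5.71% called higher at this last step was close to that of protein-coding genes. DESeq2 called 3 channel genes higher and 0 lower, beside 1342 and 983 of 46949 features. In edgeR, 4 channel genes (Cacna1h, Cacna2d2, Cacnb3 and Cacng3) had a negative estimate with an unadjusted p under 0.05. The joint test of the 4 ages called 18 of the 35 channel genes tested, beside 27.2% of all features and 48.0% of protein-coding genes. That share of channel genes was close to that of protein-coding genes.

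The 9 calls between D22 and D25 rested in part on single organoids. Without D22 replicate 1 the count was 4, and it was 5 without D22 replicate 5, D22 replicate 6, D25 replicate 1 or D25 replicate 6. Cacnb2, Cacnb4, Cacna1e and Scn7a were called whichever organoid was left out. Over the 24 organoids left out in turn, the call was lost 15 times for Scn2a, 8 times for Cacna2d3, 8 times for Scn2b, 5 times for Cacna1h and 4 times for Scn1a. Between D25 and D30 the count of 2 became 4 without D25 replicate 1, and 1 without any of D25 replicates 2 to 6 or D30 replicates 1, 2, 4 and 5, where Scn7a was the call that stayed.

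**Figure D1:**
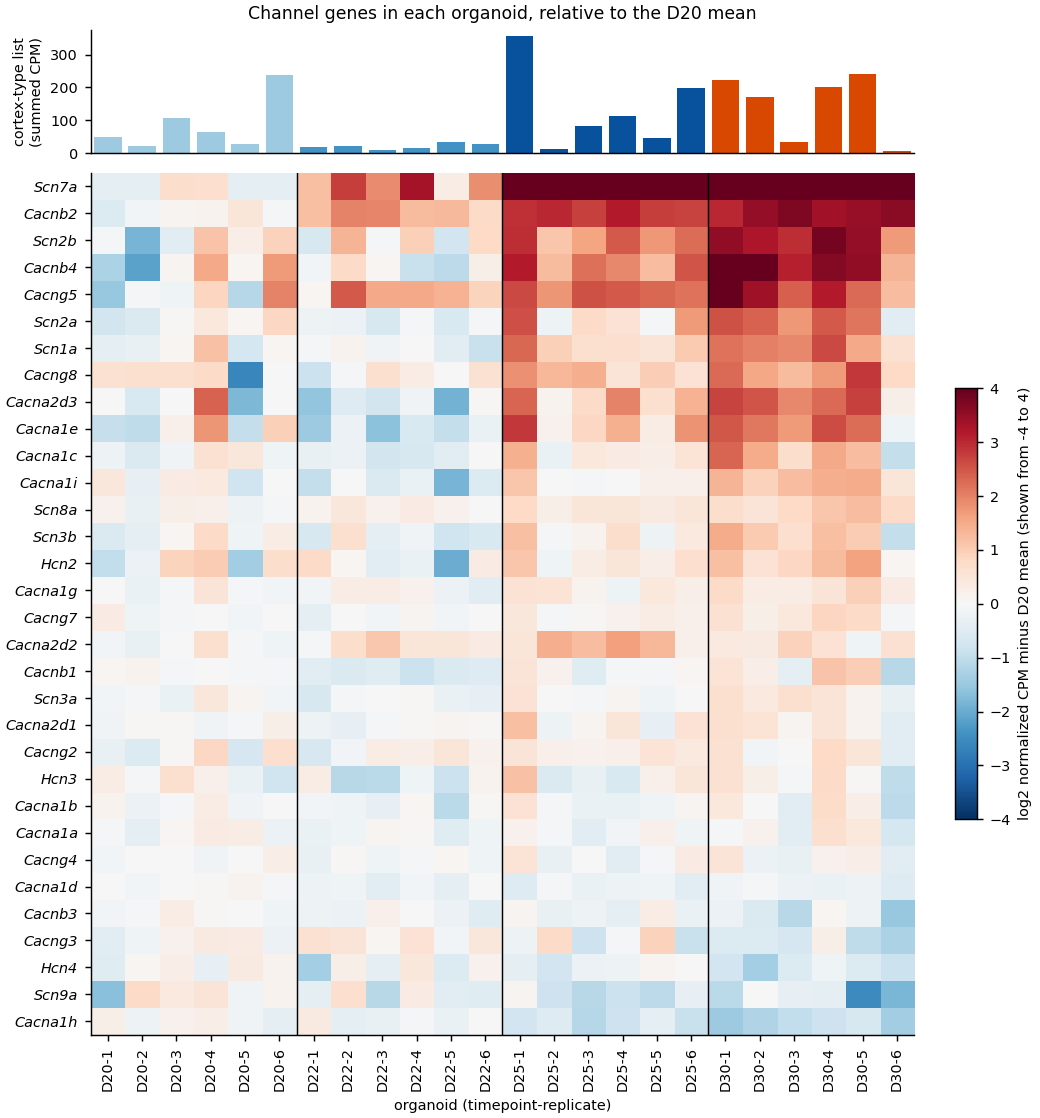
Heat map of 32 channel genes tested (rows, ordered by the change from D20 to D30) in the 24 organoids (columns, timepoint and replicate). Colour gives log2 normalized CPM minus the D20 mean of the gene, and the bars above give the summed CPM of the 7 cortex list genes. Scn7a and Cacnb2 were raised in all D25 and D30 organoids, whereas the column of D30 replicate 6 is pale or blue for many of the genes that rose in the other D30 organoids.

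Among the pore-forming sodium channel genes, 4 of 10 rose from D20 to D30, 3 were tested and not called, and 3 were below the filter. The largest change of all channel genes was that of Scn7a, which encodes Nax, an atypical member that is gated by extracellular sodium rather than by voltage and is best known from glia. Scn7a had 0 reads in 4 of 6 D20 organoids and 2 reads in each of the other 2. Its lowest, median and highest levels were 0.0719, 0.469 and 1.5 CPM at D22, 2.43, 3.76 and 4.76 CPM at D25, and 15.8, 25 and 33.8 CPM at D30. All D25 organoids were above all D22 organoids, and all D30 organoids were above all D25 organoids. Against a floor of 3 reads per D20 library (0.203 CPM on average), the D25 mean of 3.71 ± 0.767 CPM (SD, n = 6) was at least 18.2-fold higher and the D30 mean of 24.8 ± 6.13 CPM (SD, n = 6) was at least 122-fold higher. The fitted log2 change from D25 to D30 was 2.74 (SE 0.32, adjusted p = 6.28e-07). The level in D30 replicate 6, 25.2 CPM, was in the middle of the D30 range, while the Müller glia list had its lowest D30 sum there. A relation between the level of Scn7a and that list was not tested.

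Scn7a lies at the end of a cluster of 5 sodium channel genes on chromosome 2 (GRCm38, 65457118 to 66784914), in the order Scn3a, Scn2a, Scn1a, Scn9a and Scn7a. The cluster spans 1.33 Mb, and its members did not change together: Scn7a, Scn2a and Scn1a rose, and Scn3a and Scn9a were not called. The sequence before the start of Scn7a and that before the more upstream of the 2 RefSeq starts of Scn2a are shown because both genes rose while their levels differed in how they varied between organoids. They were taken from the RefSeq promoter table for GRCm38.p6, which matched 31 of the 42 channel genes. Scn7a is given on the minus strand (chr2:66784915-66785160, 246 bases) and Scn2a on the plus strand (chr2:65620519-65620768, 250 bases), both 5′ to 3′ and outside annotated exons. Capitals mark CG dinucleotides and the letters TAATCC.
Scn7a: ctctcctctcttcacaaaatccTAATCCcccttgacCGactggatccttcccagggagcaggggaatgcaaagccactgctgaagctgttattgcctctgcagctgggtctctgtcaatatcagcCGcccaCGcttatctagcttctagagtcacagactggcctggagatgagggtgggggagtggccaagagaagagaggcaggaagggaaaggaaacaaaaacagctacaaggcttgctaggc
Scn2a: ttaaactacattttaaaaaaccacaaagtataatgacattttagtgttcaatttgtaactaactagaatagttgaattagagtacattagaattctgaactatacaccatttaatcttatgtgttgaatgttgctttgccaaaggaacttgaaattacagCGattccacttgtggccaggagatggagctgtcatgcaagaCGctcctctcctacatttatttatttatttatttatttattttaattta
Both printed windows held few CG dinucleotides, with 3 in Scn7a and 2 in Scn2a, where the median over the 32851 promoters of the table was 6 in the 250 bases before the start. The G and C share was 53.7% in Scn7a and 29.6% in Scn2a. The window of the other Scn2a start (65668436 to 65668685) held 9 CG dinucleotides and 53.2% G and C, so the low values of Scn2a hold for the printed start alone. TAATCC, the core letters bound by the photoreceptor factors Crx and Otx2, was searched on both strands (TAATCC or GGATTA) in the 300 bases around each start. It was present in windows of 4 of the 31 genes (Cacna1c, Cacna1s, Cacng8 and Scn7a), in 4 of their 42 windows, and in 7.06% of all promoters of that length. In Scn7a the match began 224 bases before the end of the printed window.

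Scn8a encodes Nav1.6, the main sodium channel of mature axon initial segments. It had lowest, median and highest levels of 49.2, 62.2 and 70.9 CPM at D20, 61.3, 68.1 and 82.6 CPM at D22, 71.8, 83.9 and 104 CPM at D25, and 87.3, 104 and 143 CPM at D30. Every D30 organoid was above every D20 organoid, replicate 6 included. The log2 change from D20 to D30 was 0.86 (SE 0.12, adjusted p = 8.58e-07), and no call was made between neighbouring ages.

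Scn2a encodes Nav1.2, the sodium channel of unmyelinated axons and young initial segments. The lowest, median and highest Scn2a levels were 17.6, 30.5 and 52.2 CPM at D20, 18.8, 25.4 and 28.5 CPM at D22, 25.7, 47.4 and 176 CPM at D25, and 21.9, 142 and 174 CPM at D30. The highest D25 value was that of replicate 1, and the lowest D30 value was that of replicate 6, which was below the next D30 organoid (98.5 CPM) and within the D20 range. The log2 change was 1.53 (SE 0.39, adjusted p = 0.00878) from D22 to D25 and 1.96 (SE 0.39, adjusted p = 1.66e-04) from D20 to D30. Without D25 replicate 1 the change from D22 to D25 was 1.01 and was not called (adjusted p = 0.0603, edgeR).

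Scn1a, encoding Nav1.1, a channel well known from fast-spiking inhibitory neurons and ganglion cells, was high in the same D25 organoid and low in the same D30 organoid as Scn2a. It ranged from 5.12 to 19.3 CPM (median 7.86) at D20, 4.46 to 9.28 CPM (median 7.8) at D22, 12 to 42.2 CPM (median 15) at D25 and 12.9 to 53.4 CPM (median 33.4) at D30. All D25 organoids were above all D22 organoids, D25 replicate 1 was the highest at D25, and D30 replicate 6 was the lowest at D30. By edgeR, the log2 change was 1.38 (SE 0.32, adjusted p = 0.00438) from D22 to D25 and 1.81 (SE 0.32, adjusted p = 3.37e-05) from D20 to D30.

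Scn3a and Scn9a were tested and not called. Scn3a, the Nav1.3 gene of embryonic neurons, was among the more abundant, with D20 and D30 medians of 42 and 61.9 CPM and a log2 change of 0.35 (SE 0.15, adjusted p = 0.0691). Scn9a, the Nav1.7 gene of peripheral sensory and sympathetic neurons, had medians of 5.42 and 2.75 CPM (log2 change -0.99, SE 0.39, adjusted p = 0.0451).

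The sodium channel beta subunits are single-pass membrane proteins that modify gating and act in cell adhesion. Scn2b rose from D20 to D30. It had lowest, median and highest levels of 0.269, 1.45 and 3.1 CPM at D20, 0.719, 1.84 and 3.63 CPM at D22, 3, 5.7 and 11.1 CPM at D25, and 4.6, 15 and 20.6 CPM at D30. The D30 organoids were all above the D20 organoids, with a log2 change of 3.06 (SE 0.43, adjusted p = 1.28e-06), and the change from D22 to D25 was 1.71 (SE 0.42, adjusted p = 0.00719).

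Scn3b, whose product pairs with sodium channels of developing neurons, had D20 and D30 medians of 15.7 and 33.2 CPM and a log2 change of 0.84 (SE 0.29, adjusted p = 0.0236). Without D30 replicate 6, where it was 8.31 CPM, the change of Scn3b was 1.04 and was called (adjusted p = 0.00141).

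**Figure D2:**
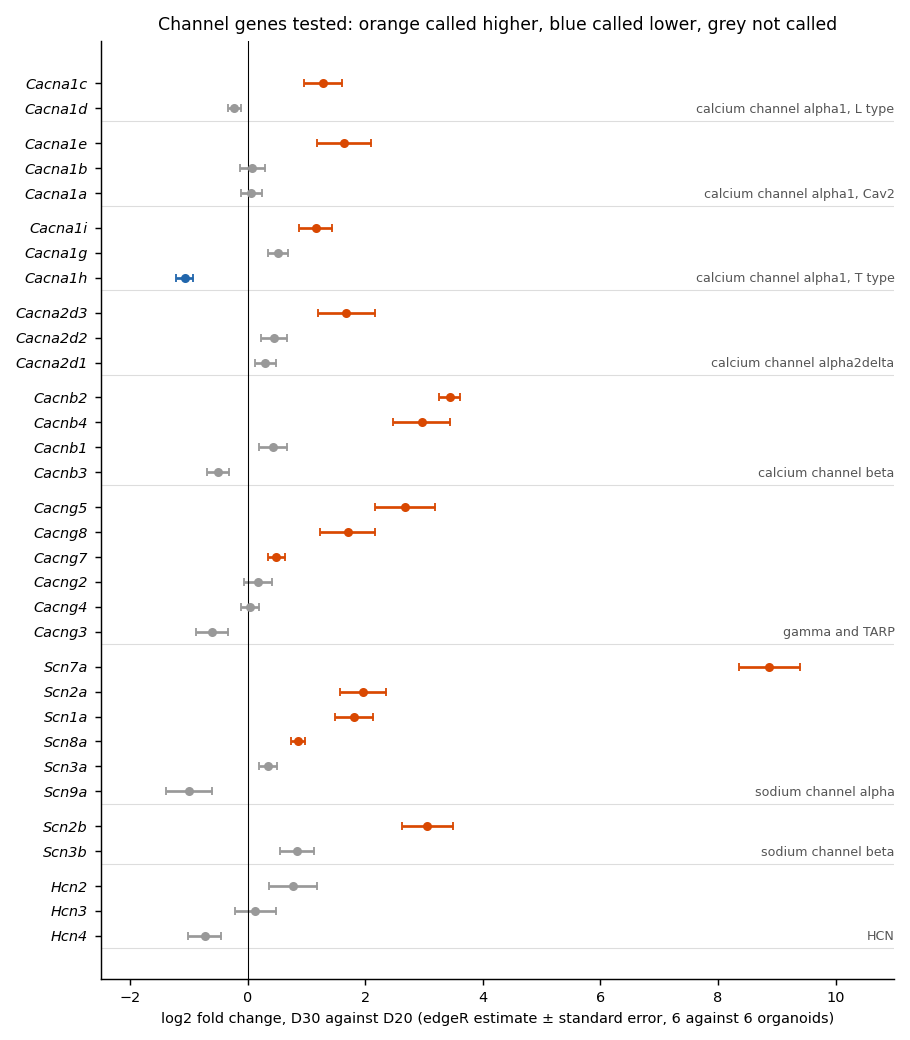
Log2 fold change from D20 to D30 (x axis, edgeR estimate with its standard error, 6 against 6 organoids) of 32 channel genes tested, grouped by family. Genes called higher (orange) stood beside genes not called (grey) in the calcium and sodium channel families, and Cacna1h was the only gene called lower (blue). The value of Scn7a, 8.87, depends on the prior count because its D20 libraries hold 0 to 2 reads.

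Each class of calcium channel pore gene contained 1 gene that rose from D20 to D30. The L-type genes encode channels with long-lasting currents. Cacna1c, the Cav1.2 gene, had lowest, median and highest levels of 6.58, 8.89 and 15.4 CPM at D20, 5.94, 7.69 and 10.1 CPM at D22, 8.23, 12.8 and 27.1 CPM at D25, and 5.1, 25.5 and 50.2 CPM at D30. At D30, 5 organoids were above all D20 organoids, and replicate 6 was below all of them. Its log2 change from D20 to D30 was 1.28 (SE 0.32, adjusted p = 0.00191), and without D30 replicate 1, the highest, it was 0.96 and not called (adjusted p = 0.0128, edgeR). Cacna1d, the Cav1.3 gene, held a narrow range of 23.8 to 37.5 CPM over all 24 organoids and had a log2 change of -0.23 (SE 0.11, adjusted p = 0.0832).

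The Cav2 genes encode the channels of presynaptic terminals. Cacna1e, which encodes the R-type channel Cav2.3, was the only one of the 3 to be called. Its levels were 5.37, 9.26 and 37.5 CPM (lowest, median and highest) at D20, 3.44, 6.43 and 9.42 CPM at D22, 12.4, 24.7 and 79.3 CPM at D25, and 9.87, 50.8 and 67.8 CPM at D30. All D25 organoids were above all D22 organoids, but the D20 and D30 ranges overlapped through D20 replicate 4 (37.5 CPM) and D30 replicate 6 (9.87 CPM). This gave a log2 change of 2.32 (SE 0.48, adjusted p = 0.00169) from D22 to D25 and 1.64 (SE 0.46, adjusted p = 0.00524) from D20 to D30. The call from D20 to D30 was lost without any 1 of 7 organoids (D20 replicates 1, 2, 3 and 5 and D30 replicates 1, 4 and 5), with adjusted p of 0.0101 to 0.016 in edgeR. The genes of the main presynaptic channels were not called: Cacna1a (P/Q type) had D20 and D30 medians of 20.1 and 21 CPM with a log2 change of 0.06 (SE 0.18), and Cacna1b (N type) had medians of 28.6 and 31.9 CPM with a log2 change of 0.08 (SE 0.21).

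The T-type genes encode low-threshold channels that open near rest. Among the 3 genes, 1 rose and 1 fell. Cacna1h, the Cav3.2 gene, was the only channel gene that fell. Its lowest, median and highest levels were 64.9, 85.4 and 101 CPM at D20, 64.2, 74.6 and 106 CPM at D22, 37.4, 47.8 and 63.4 CPM at D25, and 30.6, 39.1 and 53.7 CPM at D30. The D25 organoids were all below the D22 organoids, and the D30 organoids were all below the D20 organoids. The log2 change was -0.65 (SE 0.15, adjusted p = 0.00394) from D22 to D25 and -1.07 (SE 0.15, adjusted p = 1.06e-06) from D20 to D30.

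Cacna1i, the Cav3.3 gene, rose at a much lower level, from 1.78, 3.56 and 4.4 CPM at D20 and 0.791, 2.11 and 3.21 CPM at D22 to 3.05, 3.42 and 7.01 CPM at D25 and 4.54, 7.99 and 9.14 CPM at D30. All D30 organoids were above all D20 organoids (log2 change 1.16, SE 0.28, adjusted p = 0.00143). Cacna1g, the Cav3.1 gene, had medians of 11.9 and 16.7 CPM and a log2 change of 0.52 (SE 0.17, adjusted p = 0.0138), and it was called by DESeq2.

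The beta subunits are cytosolic proteins that bring the pore to the membrane. Cacnb2, whose product serves the ribbon synapse of photoreceptors, rose from D20 to D22 and again from D22 to D25. It had 10.8, 16.2 and 22 CPM (lowest, median and highest) at D20, 27.3, 39 and 63.4 CPM at D22, 103, 114 and 143 CPM at D25, and 128, 181 and 212 CPM at D30. There was no overlap between D20 and D22 or between D22 and D25, while the D25 and D30 ranges overlapped. In the fit, the log2 change was 1.45 (SE 0.17, adjusted p = 7.45e-06) from D20 to D22, 1.41 (SE 0.17, adjusted p = 2.59e-06) from D22 to D25 and 3.44 (SE 0.18, adjusted p = 3.94e-15) from D20 to D30. D30 replicate 6 was second highest, at 195.2 CPM.

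Cacnb4, the beta subunit of many central synapses, was first called between D22 and D25. The lowest, median and highest Cacnb4 levels were 0.47, 2.73 and 8.52 CPM at D20, 1.15, 2.52 and 4.4 CPM at D22, 6.12, 11 and 23.6 CPM at D25, and 6.65, 32.4 and 42.7 CPM at D30. All D25 organoids were above all D22 organoids, and 5 of 6 D30 organoids were above all D20 organoids. The log2 change was 2.30 (SE 0.49, adjusted p = 0.00203) from D22 to D25 and 2.96 (SE 0.48, adjusted p = 1.10e-05) from D20 to D30. Of the Cacnb4 exon bases, 15.99% lie opposite exons of A430018G15Rik, and whether the counting used the strand was not given in the sources used here. Cacnb1, the beta subunit of skeletal muscle and also of neurons, had medians of 7.59 and 10.4 CPM at D20 and D30. Cacnb3, abundant in young neurons and smooth muscle, had medians of 27.8 and 21.7 CPM with a log2 change of -0.50 (SE 0.19, adjusted p = 0.0321).

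**Figure D3:**
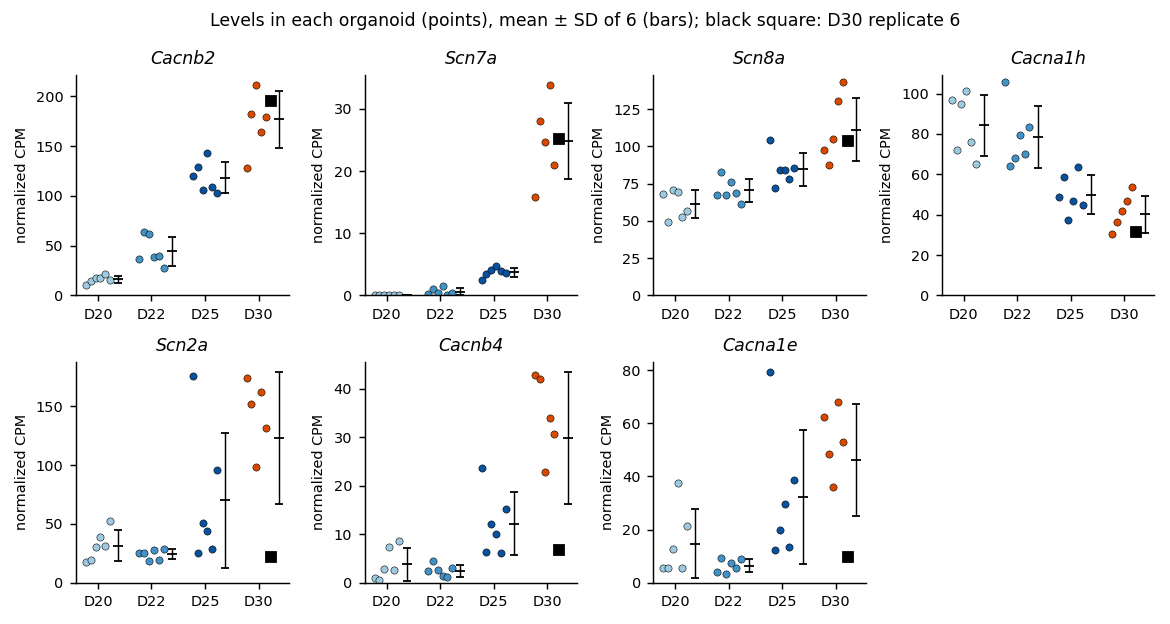
Normalized CPM (y axis, from 0) of 7 channel genes in each organoid (points) at D20, D22, D25 and D30, with the mean and SD of 6 organoids beside them. The black square is D30 replicate 6, which sits within the other D30 organoids for Cacnb2, Scn7a, Scn8a and Cacna1h, and below them for Scn2a (21.9 CPM), Cacnb4 (6.65 CPM) and Cacna1e (9.87 CPM).

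The alpha2delta subunits are extracellular proteins that promote channel trafficking and synapse formation. Cacna2d3 had levels of 0.782, 3.04 and 16 CPM (lowest, median and highest) at D20, 0.719, 1.92 and 3.13 CPM at D22, 3.35, 6.65 and 15.8 CPM at D25, and 3.6, 16.5 and 20.9 CPM at D30. Its D20 range reached into the D30 range through D20 replicate 4 (16 CPM). edgeR gave a log2 change of 2.13 (SE 0.52, adjusted p = 0.00696) from D22 to D25 and 1.68 (SE 0.49, adjusted p = 0.00757) from D20 to D30. The latter call was lost without any 1 of 9 organoids (D20 replicates 1, 2, 3, 5 and 6 and D30 replicates 1, 2, 4 and 5), with edgeR's adjusted p at 0.012 to 0.0217, and in the fit of the compared timepoints only (0.0172).

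Cacna2d2 differed among the ages without a call in any of the 4 comparisons (joint adjusted p = 9.65e-04). It had 11.3, 13 and 21.6 CPM at D20, 13.4, 19.5 and 29.5 CPM at D22, 15.9, 33.6 and 43.2 CPM at D25, and 12.3, 19.6 and 26.2 CPM at D30. The D25 values fell into 4 organoids at 32.6 to 43.2 CPM and replicates 1 and 6 at 19.6 and 15.9 CPM. Those 2 organoids had the highest cortex list sums at D25, 356 and 198 CPM. D25 replicate 4, with the next highest sum (114 CPM), had the highest Cacna2d2 level (43.2 CPM). In the edgeR fit with that sum as a covariate, the slope of Cacna2d2 was -0.13 (SE 0.05, adjusted p = 0.318) per doubling and was not called. Cacna2d1, the gabapentin-binding alpha2delta-1 subunit, was abundant at each age, with medians of 93.3, 93.2, 117 and 119 CPM, and was not called.

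The gamma genes include those of the transmembrane AMPA receptor regulatory proteins (TARPs), which traffic glutamate receptors rather than calcium channels. Cacng5, Cacng7 and Cacng8 rose from D20 to D30. Cacng5 had levels of 0.14, 0.577 and 2.88 CPM at D20, 0.674, 1.95 and 3.98 CPM at D22, 2.44, 3.83 and 4.63 CPM at D25, and 1.66, 5.28 and 12.9 CPM at D30 (log2 change 2.67, SE 0.51, adjusted p = 8.86e-05). Only D20 replicate 6 reached into the D30 range, whose lowest value was that of replicate 6.

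Cacng8 was low throughout, with 0, 1.06 and 1.19 CPM at D20, 0.306, 0.734 and 1.08 CPM at D22, 0.996, 1.62 and 2.66 CPM at D25, and 1.22, 2.27 and 5.42 CPM at D30. Its D20 and D30 ranges were next to each other without overlap (log2 change 1.70, SE 0.47, adjusted p = 0.00465). The Cacng8 call was lost without D20 replicate 6, D30 replicate 1 or D30 replicate 5 (edgeR's adjusted p 0.0112 to 0.0242), with the replicate block (0.0122) and in the fit of the compared timepoints only (0.0145). Cacng7 changed least of the genes called, with 12.2, 13.6 and 17.2 CPM at D20, 10.8, 13.2 and 14.8 CPM at D22, 13.3, 15.6 and 18.9 CPM at D25, and 12.9, 19.6 and 25 CPM at D30. Its log2 change of 0.49 (SE 0.15, adjusted p = 0.00821) was close to the threshold and was lost without any 1 of 11 organoids, and the ranges of D20 and D30 overlapped. The genes of the other TARPs were not called: Cacng4 had medians of 51.3 CPM at D20 and 51.3 CPM at D30, Cacng2 (stargazin) 8.21 and 10.8 CPM, and Cacng3 9.56 and 6.18 CPM.

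HCN channels open when the membrane becomes more negative. Hcn2, Hcn3 and Hcn4 were low and not called, with D30 medians of 3.22 CPM for Hcn2, 3.15 CPM for Hcn3 and 2.17 CPM for Hcn4, the pacemaker gene of the heart. Of the Hcn3 exon bases, 17.12% lie opposite exons of Pklr.

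Divided by exon length, the levels gave an order of the channel genes. At D20, Cacng4 was first with 14.5 ± 1.46 CPM per kb (mean ± SD, n = 6), followed by Cacna1h with 8.64 ± 1.55 and Cacna2d1 with 7.61 ± 0.809 CPM per kb. At D30, Cacng4 was again first with 14.9 ± 3.92 CPM per kb, but Cacnb2 had moved from rank 19 to rank 2 (13.4 ± 2.17 CPM per kb) and Scn2a from 13 to 3 (9.68 ± 4.42 CPM per kb). Cacna1h had moved from rank 2 to rank 11 (4.11 ± 0.929 CPM per kb), and Scn7a from rank 40 to rank 12 (3.38 ± 0.836 CPM per kb). Among the first 15 genes at D30, the organoid ranges of each gene and the next in the order overlapped on this scale, so neighbours are not separated by it. Total RNA without poly(A) selection includes intronic reads and the exon length joins all annotated transcripts, so the order is approximate.

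The genes that rose differed in how they varied between organoids of one age. D30 replicate 6 was the lowest D30 organoid for 25 of the 35 genes tested and for 12 of the 16 genes that rose. Cacnb2, Scn7a and Scn8a were among the genes that rose for which another organoid was the lowest. D25 replicate 1, which had the highest cortex list sum (356 CPM), was the highest D25 organoid for 23 of the 35 genes and 13 of the 16, with Cacnb2 and Scn7a among the exceptions. At D20, replicate 4 was the highest for 17 of the 35 genes with a cortex list sum of 64.2 CPM, whereas replicate 6, with the highest sum (238 CPM), was the highest for 5. At D22, replicate 2 was the highest for 10 genes, with a sum of 21.7 CPM.

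The cortex list sum was added to the fit as a covariate, a choice made after the values were seen. In that fit, 7 of the 35 channel genes were called higher with a higher cortex list sum (Cacna1c, Cacna1e, Cacna2d1, Cacnb4, Cacng4, Scn2a and Scn3b), beside 1.64% of all features and 5.01% of protein-coding genes. Per doubling of the sum, the log2 level was higher by 0.54 (SE 0.08) for Cacna1e, 0.49 (SE 0.06) for Scn2a and 0.47 (SE 0.09) for Cacnb4. The same slope was -0.06 (SE 0.04) for Cacnb2, -0.04 (SE 0.09) for Scn7a and 0.06 (SE 0.03) for Scn8a, none of them called. With the covariate, 13 genes were called higher and 2 lower from D20 to D30, and the calls between D22 and D25 were reduced from 9 to 2 (Cacnb2 and Scn7a). Of all features, 13.7% were then called higher and 13.2% lower from D20 to D30, and 1.80% higher and 1.53% lower from D22 to D25, against 3.08% and 2.19% without the covariate. Since Neurod6 made up much of the sum, both this fit and the next comparison rest largely on that gene.

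The comparison was also made without the organoids in which the cortex list was above 100 CPM, which left 4, 6, 3 and 2 organoids at D20, D22, D25 and D30. In these, 7 genes were called from D20 to D30, 5 higher (Cacnb2, Scn7a, Scn8a and Scn2b among them) and 2 lower (Cacna1h and Cacnb3). Of all features, 6.29% were called higher and 6.09% lower, against 13.9% and 13.0% with all organoids, so calls were fewer over all features too. The D30 organoids kept were replicates 3 and 6, and replicate 6 is the one that was lowest for 25 of the 35 genes. In replicate 3, Scn2a was at 98.5 CPM, above all D20 organoids. By edgeR, the log2 change was 3.64 for Cacnb2, 0.80 for Scn8a and -1.24 for Cacna1h, against 3.44, 0.86 and -1.07 with all organoids. That of Scn2a was 1.17 (adjusted p = 0.0278) against 1.96, that of Cacna1e 0.75 (adjusted p = 0.434) against 1.64, and that of Cacna1c -0.05 (adjusted p = 0.952) against 1.28. Fewer organoids were compared, and whether neurons of another type contributed to the levels of these genes was not tested.

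**Figure D4:**
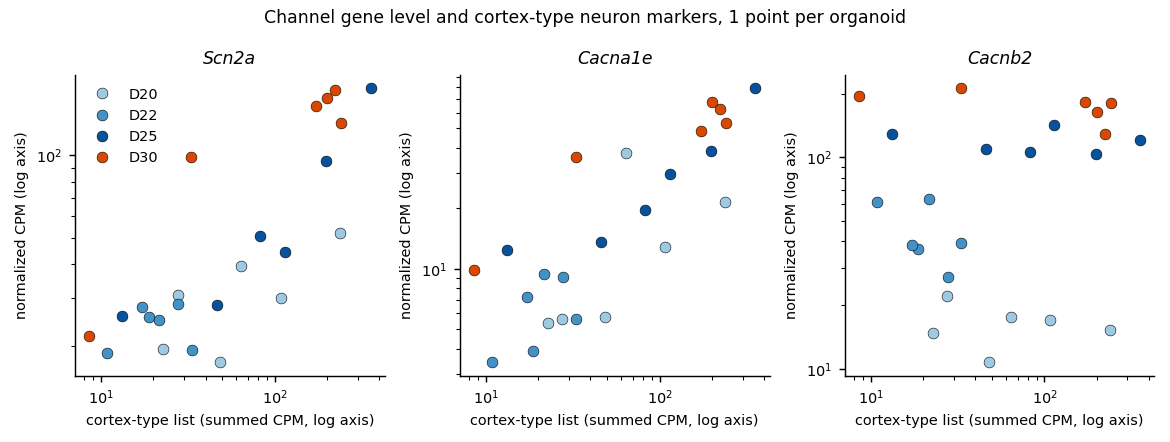
Normalized CPM of Scn2a, Cacna1e and Cacnb2 (y axes, logarithmic) against the summed CPM of the 7 cortex list genes (x axis, logarithmic), with 1 point per organoid coloured by age. Organoids with a high sum were high for Scn2a and Cacna1e within D25 and D30, whereas Cacnb2 separated D20, D22 and the later ages at any sum.

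Pairs of related subunits were compared within each library as log2 ratios of counts, which do not depend on library size. The ratio of Cacnb4 to Cacnb3 rose from a mean of -3.50 ± 1.59 (SD, n = 6) at D20 to 0.45 ± 0.60 at D30. The difference of 3.95, a 15.5-fold shift, had the smallest p that an exact two-sided permutation test of 6 against 6 can give, 0.00216 (adjusted over 4 ratios, 0.00866). All D30 organoids were above all D20 organoids, including replicate 6 at -0.56. The ratio of Scn8a to Scn3a had means of 0.43 ± 0.33 and 0.95 ± 0.48 (exact p = 0.0628, adjusted 0.126), with overlapping organoids. The ratio of Cacna1a to Cacna1b had means of -0.55 ± 0.25 and -0.53 ± 0.30 (exact p = 0.909).

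**Figure D5:**
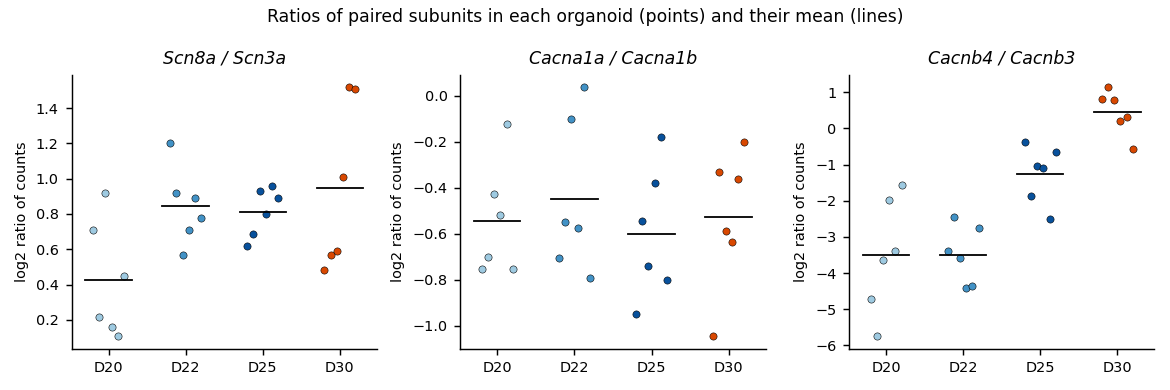
Log2 ratio of counts (y axis) of 3 pairs of channel genes in each organoid (points) at 4 ages, with the mean of 6 organoids as a line. The Cacnb4 to Cacnb3 ratio did not overlap between D20 and D30, while the points of the other 2 pairs overlapped between these ages.

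Partner genes of these channels were counted from a list of anchoring proteins, modulators, calcium sensors and presynaptic tethers. Of 27 tested, 2 (7.41%) rose from D20 to D22, beside 1.62% of all features and 2.89% of protein-coding genes. From D25 to D30, 3 (11.1%) rose, beside 1.76% and 5.35%. No partner gene was called lower at either step, beside 0.285% and 1.75% of all features. From D22 to D25, 8 (29.6%) rose and 1 (3.7%) fell, beside 3.08% of all features (8.66% of protein-coding genes) higher and 2.19% (3.02%) lower. From D20 to D30, 16 rose and 3 fell. These are 59.3% and 11.1% of the partner genes tested, beside 13.9% and 13.0% of all features and 28.8% and 16.5% of protein-coding genes. Their median log2 change was 1.09, where that of all features was -0.04 and that of protein-coding genes 0.15. Cabp5, a calcium sensor that is also in the bipolar cell marker list, changed most, from a median of 1.88 CPM at D20 to 78.4 CPM at D30 (log2 change 5.09, SE 0.29, adjusted p = 1.40e-14). Pex5l, whose product (TRIP8b) traffics HCN channels, rose from 42.6 to 224 CPM (log2 change 2.46, SE 0.20, adjusted p = 3.25e-11).

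The presynaptic scaffold genes Rims1 and Rims2, which tether calcium channels at the active zone, had log2 changes of 2.00 (SE 0.26) and 1.67 (SE 0.12). Sptbn4, the beta-spectrin of the axon initial segment, had a log2 change of 1.57 (SE 0.30), with medians of 6.1 and 17.4 CPM. The other listed genes of initial segment anchoring differed in direction from D20 to D30. Nfasc rose (log2 change 1.5, SE 0.12), Ank3 fell (log2 change -0.92, SE 0.12), and Ank2 and Nrcam were not called. Cabp1, another calcium sensor, fell from a median of 54 to 16.1 CPM (log2 change -1.64, SE 0.18, adjusted p = 8.29e-09).

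A total of 7 channel genes were below the filter. Cacna1s, Cacng1, Cacng6 and Scn4a, known from skeletal muscle, and Scn10a and Scn11a, known from nociceptive neurons, did not exceed 1.37 CPM in any organoid. Cacna1s shares 19.98% of its exon bases with the opposite strand of Gm37759. Scn4b was at 0 in all D20 organoids and between 0.232 and 1.63 CPM in all D30 organoids, and it was called higher where the fit kept genes below the filter.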

How the data were processed

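RNA of 24 single organoids was sequenced, and each library was assigned to its timepoint from the sample labels. Per the labels and the study's methods, the authors prepared strand-specific libraries from ribosomal-RNA-depleted total RNA (which keeps intronic reads), trimmed the reads with cutadapt, aligned them to GRCm38 with HISAT2, assembled transcripts with StringTie and counted uniquely mapped reads per feature with HTSeq. The strand setting of the counting was not given in the sources used here. The values the authors deposited are whole-number counts per feature, without normalization, and the summary lines were left out.

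Counts were fitted with edgeR 4.0.16 (TMM, quasi-likelihood F test) in 1 model of the 24 organoids, leaving out features whose mean normalized count was below 10. Adjusted p-values are Benjamini-Hochberg values over 46949 features with a threshold of 0.01. Log2 ratios of counts (0.5 added) were tested with exact two-sided permutation tests in SciPy 1.17.1, with p-values adjusted over 4 ratios and a threshold of 0.05. The fitting code was tested on simulated data. Alternatives were DESeq2 1.42.0, other size factors, filters and subsets of samples. Coordinates and exon lengths are those of GENCODE M21.

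By the naming rule, every channel gene was to be named, with full values for those called in the joint test or any comparison. A few channel genes, marker genes and 1 ratio are not reported here, although the counts and sums include them. The figures and the search for single high or low organoids leave those channel genes out. Partner genes are named if they were among the 6 called partners with the largest change, or if they belong to the list of initial segment anchoring. The genes and lists were chosen with earlier results of these data known. No pair of libraries was alike within sampling noise. The floor of 3 reads covers counting error only.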

Additional observations from a re-analysis of the deposited data

Results flagged for a closer look

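In each timepoint, an organoid was marked where its gap to the nearest organoid was larger, relative to the range of the 6 on the log2 scale, than the critical value of Dixon's test. Over 32 channel genes and 4 timepoints this marked 15 of 128 groups, where chance marks about 1 in 20. The genes are not independent of each other.

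D30 replicate 6 was marked as low for 5 genes. Its levels were 9.87 CPM for Cacna1e (36.0 to 67.8 CPM in the other D30 organoids), 3.6 CPM for Cacna2d3 (11.8 to 20.9 CPM), 6.65 CPM for Cacnb4 (22.8 to 42.7 CPM), 21.9 CPM for Scn2a (98.5 to 174 CPM) and 8.31 CPM for Scn3b (25.8 to 45.3 CPM).

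At D25, replicate 1 was marked as high for 3 genes, with 7.01 CPM for Cacna1i (3.05 to 3.72 CPM in the others), 42.2 CPM for Scn1a (11.9 to 17.6 CPM) and 67.7 CPM for Scn3a (40.1 to 48.2 CPM). At D22, replicate 5 was low for Cacna1b (13.8 CPM against 23.4 to 30.8 CPM) and replicate 4 was low for Cacnb1 (4.17 CPM against 5.11 to 5.7 CPM).

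At D20, replicate 4 was high for Cacna1g (17.8 CPM against 10.3 to 12.2 CPM) and Cacna2d2 (21.6 CPM against 11.3 to 14 CPM). D20 replicate 1 was high for Cacng7 (17.2 CPM against 12.2 to 13.7 CPM) and low for Scn9a (1.33 CPM against 4.05 to 7.66 CPM), and D20 replicate 5 had 0 CPM for Cacng8 (0.64 to 1.19 CPM in the others).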

How the results depend on the processing

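The numbers of channel genes called were 3, 9, 2, 17 and 18 (D20 to D22, D22 to D25, D25 to D30, D20 to D30 and the joint test). Under DESeq2, DESeq2 size factors, no filter, filterByExpr, annotated genes only and the fit of the compared timepoints only, they stayed within 1.5 times of these. Of 31 single calls, 31 were kept under DESeq2, 31 under its size factors, 30 without a filter, 30 with filterByExpr, 29 with annotated genes only and 27 with the compared timepoints only, none reversed. Replicate numbers did not pair the organoids: deviations from the timepoint means correlated with a median of 0.01 (-0.083 to 0.214) over 36 same-numbered pairs, 1 of them above 0.1, and 0.002 over 180 other pairs. With the replicate block, 26 of 31 calls were kept, the count from D25 to D30 was 1, and the Cacnb4 to Cacnb3 ratio kept its difference of 3.95 but not its call, in an exact sign-flip test of 6 pairs whose smallest p is 0.0312. In alternatives chosen after seeing the data, the cortex list as covariate gave 2 calls from D22 to D25 and kept 21 of 31 calls. Leaving out the organoids above 100 CPM of that list gave 2 from D22 to D25, 7 from D20 to D30 and 8 in the joint test, kept 11 of 31 calls and turned the log2 change of Cacna1c from D20 to D30 to -0.05. Fewer organoids were compared there, and calls were fewer over all features too. From D22 to D25, 235 of 46949 features were then called higher and 132 lower, against 1448 and 1030 with all organoids. Leaving out 1 organoid gave 3 to 3, 4 to 9, 1 to 4, 12 to 18 and 16 to 21 calls and kept 20 of 31 single calls. The ratio differences were then 0.40 to 0.62 (Scn8a to Scn3a), -0.05 to 0.12 (Cacna1a to Cacna1b) and 3.50 to 4.34 (Cacnb4 to Cacnb3). The cause of these shifts was not tested. At this depth, 3 reads correspond to at most 0.22 CPM, and genes near that level could not be compared.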

Other observations

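Several of these genes are neighbours in the genome (GRCm38, with gaps of up to 1 Mb), and neighbours differed in level and change. On chromosome 7 (3332955 to 3435667), Cacng7 and Cacng8 rose from D20 to D30, and Cacng6, which lies next to them, stayed at or below 0.979 CPM. On chromosome 11 (107703218 to 107915055), Cacng5 rose, Cacng4 was abundant with a log2 change of 0.04 (SE 0.15), and Cacng1 did not exceed 0.419 CPM. On chromosome 9 (45117782 to 45154152), Scn2b rose to a median of 15 CPM at D30, where the neighbouring Scn4b had a median of 0.561 CPM.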
